A study of Drosophila melanogaster with 9 samples.

Results

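Cytosolic ribosomal protein genes encode the proteins of the large and small ribosomal subunits that translate nuclear messenger RNA. The ribosome needs nearly all of these proteins in fixed proportions, and their genes are expressed together at a high level in growing cells. In Drosophila, losing 1 copy of many of them gives the Minute phenotype of slow development and thin bristles, and in the ovary the nurse cells make large numbers of ribosomes that are passed to the egg. The genes were chosen by symbol, as those that begin with RpL, RpS or RpLP followed by a number, leaving out 10 named members of paralogue pairs such as RpS5a and RpS5b. Of 17559 genes in the count files, 77 met this rule, and 73 of them had enough counts to be among the 8427 genes tested, 46 of the large and 27 of the small subunit. Another 5 symbols that meet the rule (RpL19, RpL27A, RpL31, RpS10b and RpS12) could not be paired with an identifier in the files and were not analysed here.

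The data were RNA sequencing counts from ovaries of Drosophila melanogaster, made from total RNA, in 3 groups of 3 biological replicates. The groups were flies mutant for DPLG1 (replicates 22, 5 and 7), flies mutant for DPLG4 (replicates 15, 3 and 7) and control flies of the w1118 strain (replicates 1, 2 and 3). DPLG1 and DPLG4 are genes that derive from PIF transposases, and the study asked how ovary transcripts differ when either is lost. The labels give no age, allele or genetic background for the mutants, and the replicate numbers were used only as names.

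The gene symbols CG12253 and CG7492 stand for DPLG1 and DPLG4 in the annotation. For CG12253 the DPLG1 mutant libraries held 0, 0 and 1 counts, against 1627, 5550 and 943 counts in the controls. For CG7492 the DPLG4 mutant libraries held 102, 147 and 77 counts, against 2692, 13517 and 2910 counts in the controls. Counts assigned to genes ranged from 18078883 in control replicate 3 to 95751320 in DPLG4 mutant replicate 3. Of 11 ovary markers 9 were matched, and all 9, among them osk, grk and bam, were detected in every library. The level of bam, which early germline cells express, was 65.3, 62.3 and 58.2 CPM (counts scaled to a common library size) in DPLG1 mutants and 39.6, 36.1 and 30.7 CPM in DPLG4 mutants, against 34.8, 37.4 and 35.3 CPM in controls, so that the DPLG1 mutant libraries lay above all others. In control replicate 1, 70.7% of the reads did not align uniquely, against 7.61% to 10.0% in the other libraries. The summed level of 9 chorion genes, which late follicle cells express, was 1058 to 2031 CPM in DPLG1 mutant ovaries, 1436 to 2474 CPM in DPLG4 mutant ovaries and 325.3 to 808.8 CPM in control ovaries. Summed over 7 digestive enzyme genes of the gut, the level reached 44.9 CPM in DPLG1 mutant replicate 7 and 30.1 CPM in DPLG4 mutant replicate 3, and was at most 0.0857 CPM in the controls. The testis genes dj, Mst84Da and loopin-1 were at 0 counts in all 9 libraries. In bulk ovaries, fewer cells of a type and less RNA per cell cannot be told apart.

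The ribosomal protein genes took a somewhat larger share of all gene counts in both mutants than in controls, and the libraries within a mutant group spread by more than the group means differed. They held 12.3%, 10.5% and 10.1% of the counts in DPLG1 mutant replicates 22, 5 and 7, and 13.2%, 11.0% and 9.69% in DPLG4 mutant replicates 15, 3 and 7. In control replicates 1, 2 and 3 the share was 10.1%, 8.95% and 8.07%. The means were 11.0% ± 1.17 in DPLG1 mutants, 11.3% ± 1.77 in DPLG4 mutants and 9.04% ± 1.02 in controls (SD, n = 3 each). A single library stood highest in each mutant, replicate 22 of the DPLG1 mutant and replicate 15 of the DPLG4 mutant. The lowest DPLG4 mutant library, replicate 7, lay below control replicate 1. Large subunit genes held 6.66% ± 0.706 of the counts in DPLG1 mutants, 6.89% ± 1.09 in DPLG4 mutants and 5.55% ± 0.611 in controls, and small subunit genes held 4.31% ± 0.468, 4.40% ± 0.681 and 3.49% ± 0.408 in the same groups (SD, n = 3 each). The means of both subunits were thus higher in both mutants.

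**Figure D1:**
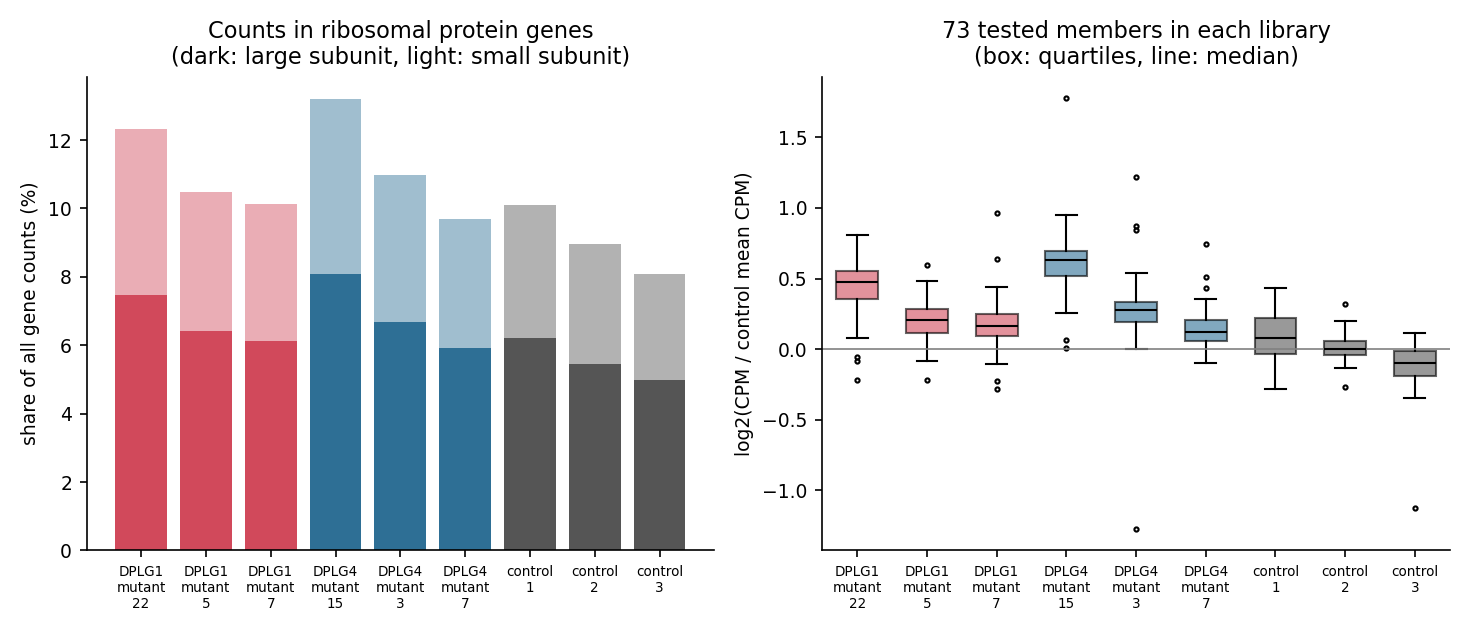
Left, share of all gene counts (%) in the 77 ribosomal protein genes by library, with the large subunit in the dark and the small subunit in the light part of each bar. Right, boxes of log2(CPM over the control mean CPM) of the 73 tested genes in each library, with the median as a line, whiskers to 1.5 times the box height and points beyond. The highest boxes are DPLG4 mutant replicate 15 and DPLG1 mutant replicate 22, and control replicate 3 is the lowest.

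Per kilobase of exon, nearly all of these genes stood among the most abundant ovary transcripts. The median level over the 73 tested genes was 1466 CPM per kb, with quartiles of 1052 and 2101, against 20.98 CPM per kb over all tested genes, and 70 of the 73 were among the 500 highest. The highest was RpL41, which encodes a very small basic peptide of the large subunit and whose annotated exons span 320 bases. RpL41 stood at 12010 ± 1732 CPM per kb in DPLG1 mutants, 14010 ± 4585 in DPLG4 mutants and 11370 ± 3457 in controls (SD, n = 3 each). Next came RpS27A, whose protein is made as a fusion with ubiquitin, at a mean over all libraries of 3830 CPM per kb, then RpL39, a small protein of the exit tunnel, at 3332, and RpL21 at 3101. The order of levels was nearly the same in each group, with Spearman rho across the 73 genes of 0.982 between DPLG1 mutants and controls and 0.988 between DPLG4 mutants and controls.

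The lowest tested genes were the ones annotated as relatives or second copies rather than as the main gene of a ribosomal protein. RpL24-like and RpLP0-like, whose relatives in yeast and human act in ribosome assembly, had mean levels of 319 and 82.8 CPM per kb. RpS15Ab, a second copy of RpS15Aa, had 68.2 CPM per kb, and RpS10a had 1.45 CPM per kb. The genes that were not tested were RpL10Aa with 0 counts in all libraries together, RpS28-like with 7, RpL7-like with 10 and RpL37-2 with 18. Each of RpL10Aa and RpL37-2 has a highly expressed copy, RpL10Ab and RpL37-1. Reads that did not align uniquely were tallied in a summary line apart from the genes. Reads of near-identical copies may thus be missing from either copy, so the levels of such copies are uncertain.

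**Figure D2:**
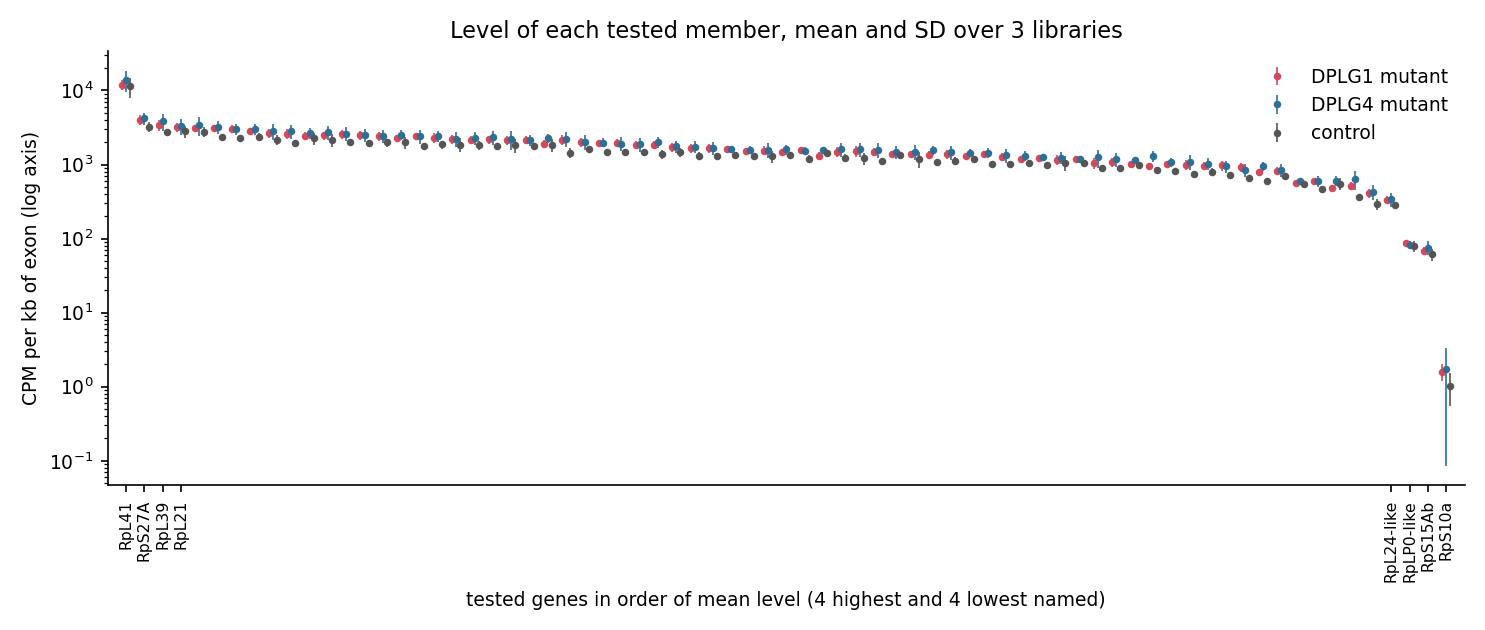
Level of each of the 73 tested genes in CPM per kb of exon (log axis), as the mean and SD over 3 libraries for each group, ordered by the mean over all libraries, with the symbols of the 4 highest and 4 lowest genes on the horizontal axis. RpL41 is highest, RpL24-like, RpLP0-like, RpS15Ab and RpS10a are lowest, and the 3 groups follow the same order.

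The share of paralogues differed little between groups. RpL34a made up 38.0% ± 1.57 of the summed CPM per kb of RpL34b and RpL34a in DPLG1 mutants, 38.9% ± 0.753 in DPLG4 mutants and 38.9% ± 1.43 in controls (SD, n = 3 each). RpS15Ab made up 4.25% ± 0.208 of the sum of RpS15Aa and RpS15Ab in DPLG1 mutants, 4.54% ± 0.126 in DPLG4 mutants and 4.53% ± 0.104 in controls. In both pairs the ranges over libraries overlapped between DPLG1 mutants and controls and between DPLG4 mutants and controls.

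In DPLG1 mutant against control ovaries, no ribosomal protein gene passed edgeR's quasi-likelihood test at an adjusted p under 0.05, and 9 of all 8427 tested genes did (0.107%). The log2 fold changes were nevertheless positive for 71 of the 73 genes, with a median of 0.28 (a fold of 1.21) and quartiles of 0.20 and 0.36. Over all tested genes the median was 0.014, and 4345 of 8427 were positive. An unadjusted p under 0.05 in the higher direction was found for 23 of the 73 genes, against 7.13% of all tested genes, and none had one in the lower direction. For 36 genes every DPLG1 mutant library was above every control library in CPM, against 15.8% of all tested genes. The DESeq2 Wald test, which called 2.74% of the genes it gave an adjusted p, called none of the 73 either. The median was 0.18 without DPLG1 mutant replicate 22, the library with the largest share of ribosomal protein counts in that group. The number of genes with an unadjusted p under 0.05 was 7 without that library and also 7 without control replicate 3, and 37 without DPLG4 mutant replicate 15, which enters through the shared estimate of spread. The share of all tested genes with such a p in these reduced fits is not reported here. These counts therefore cannot be set against a background.

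RpL8, a protein of the large subunit close to the peptidyl transferase centre, had the smallest p of the group in this comparison. It had 1524, 1521 and 1331 CPM in the DPLG1 mutant libraries, against 1019, 1185 and 1230 CPM in the controls. The lowest mutant library was thus above the highest control, and the log2 fold change was 0.35 (SE 0.10, adjusted p = 0.269, edgeR's quasi-likelihood test). RpS16, a small subunit protein that reaches the peptidyl site, had the largest log2 fold change, with 1902, 1518 and 1474 CPM in DPLG1 mutant ovaries, against 934.5, 1246 and 1083 CPM in control ovaries. Those groups did not overlap, with a log2 fold change of 0.58 (SE 0.18, adjusted p = 0.276, edgeR's quasi-likelihood test).

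RpS3, which lies at the entry of the messenger RNA channel, had 1926, 1817 and 1648 CPM in DPLG1 mutants, against 1192, 1451 and 1431 CPM in controls, a log2 fold change of 0.40 (SE 0.12). RpL7 and RpL10Ab, a protein of the mobile L1 stalk, had log2 fold changes of 0.40 each and did not overlap the controls. The adjusted p of these 3 genes was 0.276 (edgeR's quasi-likelihood test). RpL5 and RpL11, which enter the large subunit together with a small ribosomal RNA, had log2 fold changes of 0.46 and 0.42. RpL10, which joins the large subunit late in its assembly, had 0.43. None of these 3 passed the test, with adjusted p = 0.276, 0.278 and 0.276 (edgeR's quasi-likelihood test).

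At the other end, RpL28 and RpL6 were the 2 genes with negative log2 fold changes. RpL28 had 730.3, 651.8 and 623.6 CPM in DPLG1 mutants, against 914.3, 725.9 and 636.1 CPM in controls, so that the groups overlapped. Its log2 fold change was -0.18 (SE 0.16, adjusted p = 0.509, edgeR's quasi-likelihood test), and -0.0098 without control replicate 1, its highest control library. RpL6 had 1185, 1428 and 1177 CPM in DPLG1 mutants, against 1349, 1383 and 1401 CPM in controls. That gave a log2 fold change of -0.13 (SE 0.10, adjusted p = 0.493, edgeR's quasi-likelihood test), and its sign turned under upper quartile scaling, where the value was 0.015. RpLP1, a protein of the acidic stalk, stood at 0.04, while its partners of the stalk, RpLP0 and RpLP2, stood at 0.52 and 0.41. RpL3, a large subunit protein at the peptidyl transferase centre, stood at 0.05.

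**Figure D3:**
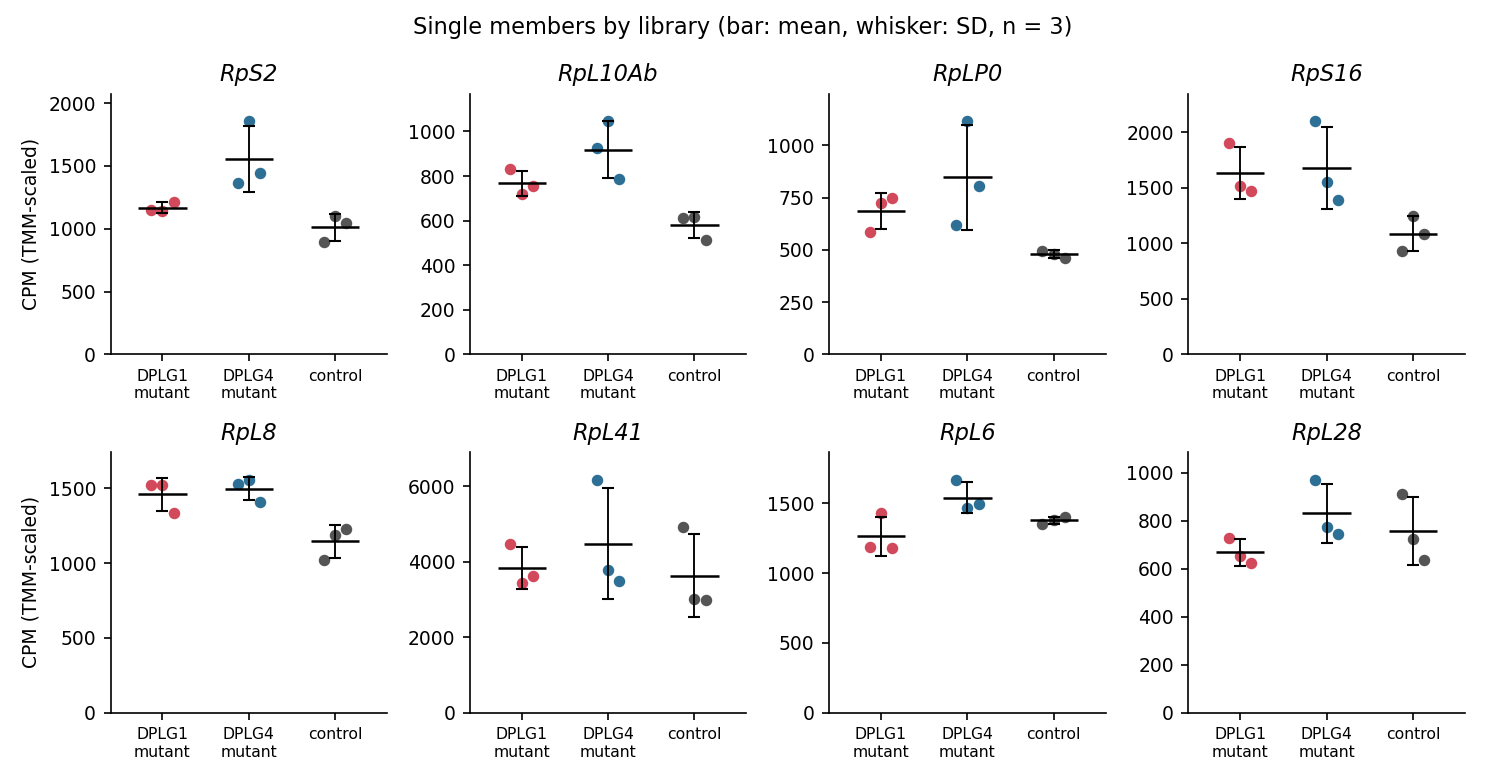
CPM of 8 ribosomal protein genes in each library (points), with the mean (bar) and SD (whisker) of 3 libraries per group. RpS2, RpL10Ab, RpLP0, RpS16, RpL8 and RpL6 are higher in every DPLG4 mutant library than in every control library. RpL41 overlaps between all groups, and RpL28 overlaps between each mutant and the controls. RpS2, RpL6 and RpL28 are lower in every DPLG1 mutant library than in every DPLG4 mutant library.

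In DPLG4 mutant against control ovaries, again no ribosomal protein gene passed edgeR's quasi-likelihood test, and 36 of all tested genes did (0.427%). All 73 log2 fold changes were positive, from 0.06 to 0.82, with a median of 0.36 (a fold of 1.28) and quartiles of 0.29 and 0.40. The median over all tested genes was -0.0072, with 4124 of 8427 positive. An unadjusted p under 0.05 in the higher direction was found for 38 genes, against 7.32% of all tested genes. For 37 genes every DPLG4 mutant library was above every control library, against 9.48% of all tested genes. The DESeq2 Wald test called 6 genes higher, among them RpL10Ab, RpS2, RpL13A, RpLP0 and RpL8, with adjusted p between 0.000756 and 0.0409, where 2.19% of all genes with an adjusted p were called. Without DPLG4 mutant replicate 15 the median was 0.20. The number of genes with an unadjusted p under 0.05 was 17 without that library, 22 without control replicate 2 and 16 without control replicate 3. Here too the share of all tested genes in the reduced fits is not reported. Without control replicate 1, in which most reads did not align uniquely, the medians were 0.44 in DPLG4 mutants and 0.37 in DPLG1 mutants against controls. This comparison and the one of the DPLG1 mutant share the same 3 control libraries, so their values are not independent.

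RpL10Ab had the smallest p of all 73 genes. It lies on 3L at 11822851 to 11824211 on the plus strand (build BDGP6.54). It had 925.0, 1045 and 786.0 CPM in DPLG4 mutant replicates 15, 3 and 7, against 612.5, 616.4 and 514.0 CPM in the controls. Every mutant library was above every control, with a log2 fold change of 0.66 (SE 0.13, adjusted p = 0.0973, edgeR's quasi-likelihood test; adjusted p = 0.000756, DESeq2). RpS2, a small subunit protein also known as string of pearls because its mutants arrest egg chambers in Drosophila, had 1365, 1855 and 1441 CPM in DPLG4 mutants, against 891.8, 1099 and 1042 CPM in controls. Its groups did not overlap either, and the log2 fold change was 0.62 (SE 0.13, adjusted p = 0.141, edgeR's quasi-likelihood test; adjusted p = 0.0080, DESeq2). RpS2 lies on 2L at 9896265 to 9897552 on the minus strand (build BDGP6.54).

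RpLP0, the base of the acidic stalk that recruits translation factors, had the largest log2 fold change of the 73 genes. It had 620.6, 1114 and 803.2 CPM in DPLG4 mutants, against 496.2, 480.8 and 460.7 CPM in controls. The controls lay close together and the mutants spread widely, with replicate 3 highest, and the log2 fold change was 0.82 (SE 0.20, adjusted p = 0.185, edgeR's quasi-likelihood test). The stalk proteins RpLP2 and RpLP1 had values of 0.52 and 0.29. RpL13A and RpL8 had log2 fold changes of 0.52 and 0.39 with no overlap between groups, and adjusted p of 0.193 and 0.239 (edgeR's quasi-likelihood test). RpS16 and RpL11 had 0.63 and 0.51, and RpL38, in pericentric 2R, had 0.47. Without DPLG4 mutant replicate 15 the values of RpL11 and RpL38 were 0.32 and 0.22.

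The ubiquitin fusions RpS27A and RpL40 had log2 fold changes of 0.37 and 0.32, and RpS6, the target of S6 kinase, had 0.29. RpS13 and RpS4, small subunit proteins, had 0.25 and 0.27. The lowest values were those of RpLP0-like at 0.06, RpL28 at 0.13 and RpL3 at 0.16. For RpL28 the value was 0.0056 without DPLG4 mutant replicate 15 and 0.30 without control replicate 1. RpL41 had 6171, 3775 and 3505 CPM in DPLG4 mutants, against 4914, 3021 and 2976 CPM in controls. In each group 1 library stood far above the other pair, the groups overlapped, and the log2 fold change of 0.30 had an SE of 0.26. RpS10a, at about 1 CPM, had a log2 fold change of 0.66 with an SE of 0.70, and turned to -0.47 without DPLG4 mutant replicate 15.

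Large and small subunit genes had much the same values. Their median log2 fold changes were 0.27 and 0.29 in DPLG1 mutants against controls, and 0.36 and 0.37 in DPLG4 mutants against controls. Of the 73 genes, 25 share exon sequence with another annotated gene, 22 of them with a gene on the opposite strand, and the labels do not say whether the counting used strand. The 48 genes without shared exons had medians of 0.30 and 0.37 in the same comparisons. The 500 other genes with the highest mean CPM had medians of 0.034 and -0.045, and of 0.072 and -0.0015 once the trend with exon length was removed.

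In DPLG1 against DPLG4 mutant ovaries, no ribosomal protein gene passed edgeR's quasi-likelihood test, 53 of all tested genes did (0.629%), and DESeq2 called none of the 73 and 1.96% of all genes with an adjusted p. The log2 fold changes were negative for 64 genes and positive for 9, with a median of -0.083, against -0.035 over all tested genes. That direction rested on single libraries, since the median was 0.084, with 57 genes positive, without DPLG4 mutant replicate 15, and -0.18 without DPLG4 mutant replicate 7 or DPLG1 mutant replicate 22. It was -0.0093 without DPLG1 mutant replicate 7 and -0.042 without DPLG1 mutant replicate 5. An unadjusted p under 0.05 in the lower direction was found for 2 genes, RpS2 and RpL6, against 3.89% of all tested genes. The CPM of 3 genes, RpS2, RpL6 and RpL28, was lower in every DPLG1 mutant library than in every DPLG4 mutant library, against 6.46% of all tested genes.

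RpS2 had 1146, 1138 and 1217 CPM in DPLG1 mutants, against 1365, 1855 and 1441 CPM in DPLG4 mutants. The log2 fold change was -0.41 (SE 0.13, adjusted p = 0.379, edgeR's quasi-likelihood test). RpL6 had 1185, 1428 and 1177 CPM in DPLG1 mutants, against 1668, 1464 and 1493 CPM in DPLG4 mutants, a log2 fold change of -0.29 (SE 0.10, adjusted p = 0.478, edgeR's quasi-likelihood test). For RpL28, RpL10Ab, RpLP0, RpL13A and RpL23A the values were -0.31, -0.26, -0.30, -0.20 and -0.19, and their adjusted p lay between 0.725 and 0.821 (edgeR's quasi-likelihood test).

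Ribosomal protein genes are short, and levels in these libraries varied with exon length. The 73 genes had annotated exons of 288 to 3835 bases with a median of 903, and 44 were under 1000 bases, against a median of 2056 over 8248 tested genes with a length. For each library, the deviation of log2 CPM from the mean of all 9 libraries was set against exon length over all tested genes. Spearman rho was -0.396, -0.046 and -0.213 in DPLG1 mutant replicates 22, 5 and 7, and -0.499, -0.111 and 0.435 in DPLG4 mutant replicates 15, 3 and 7. In control replicates 1, 2 and 3 it was -0.209, 0.600 and 0.499. A negative value means that short genes were relatively high in that library, and the 2 mutant libraries with the most negative values were those with the highest share of ribosomal protein counts.

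Compared with other genes of the same length class, the ribosomal protein genes had higher median log2 fold changes in both mutants. From 500 to under 1000 bases, 41 of them had a median log2 fold change of 0.29 in DPLG1 mutants against controls, and 1032 other genes had 0.14. For the DPLG4 mutant the values in this class were 0.36 and 0.15. From 1000 to under 2000 bases, 27 ribosomal protein genes had 0.27 and 2602 other genes had 0.099 in DPLG1 mutants against controls. The values in that class were 0.37 and 0.058 for the DPLG4 mutant. Genes of 4000 bases and over, which include no ribosomal protein gene, had medians of -0.33 and -0.21. Across all tested genes with a length, log2 fold change and exon length had a Spearman rho of -0.407 in either comparison, while within the 73 genes it was -0.0036 for the DPLG1 mutant and -0.11 for the DPLG4 mutant.

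**Figure D4:**
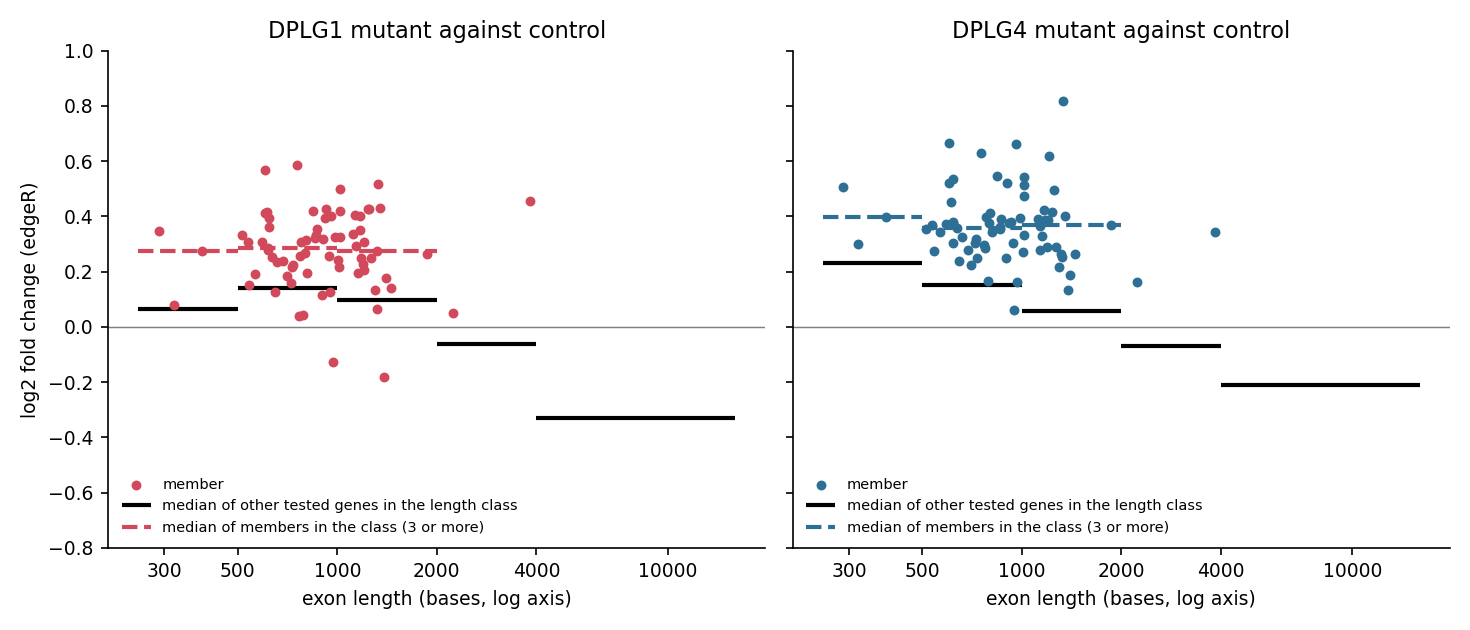
log2 fold change of each ribosomal protein gene against its exon length (log axis), for DPLG1 mutant (left) and DPLG4 mutant (right) against control. Black lines are medians of the other tested genes in 5 length classes and dashed lines are medians of the ribosomal protein genes in classes with 3 or more of them, which lie above the black line in each class shown.

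Removing the length trend from each library brought the values down and left most of them positive. After removal, the median log2 fold change was 0.15 in DPLG1 mutants against controls, with 65 of 73 genes positive, and no gene passed edgeR's quasi-likelihood test, where 0.249% of all tested genes did. An unadjusted p under 0.05 in the higher direction was then found for 16 genes, against 10.0% of all tested genes. In the lower direction RpL28 had one, at -0.28 (unadjusted p = 0.0186, adjusted p = 0.186, edgeR's quasi-likelihood test). For DPLG4 mutants against controls the median was 0.18, with 71 genes positive and only RpL18 and RpLP0-like below 0. Again no gene passed edgeR's quasi-likelihood test, where 0.617% of all tested genes did, and 29 genes had an unadjusted p under 0.05 in the higher direction, against 7.03% of all tested genes.

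By library, the median deviation of the 73 genes from the control mean was 0.49, 0.21 and 0.17 (log2) in DPLG1 mutant replicates 22, 5 and 7 before the trend was removed, and 0.22, 0.18 and 0.060 after it. In DPLG4 mutant replicates 15, 3 and 7 it was 0.64, 0.28 and 0.13 before and 0.22, 0.19 and 0.18 after. In control replicates 1, 2 and 3 it was 0.081, 0.0027 and -0.099 before and -0.12, 0.070 and 0.043 after. The spread among the DPLG4 mutant libraries thus narrowed after removal, with an SD of 0.0205 after it and 0.263 before it, and all 3 then lay above the controls, whereas the lowest DPLG1 mutant library lay below control replicate 2. The controls did not narrow, with an SD of 0.1015 after removal and 0.0905 before it. Control replicate 1, in which most reads did not align uniquely, was then the lowest library and lowers the control mean. No fit removed the trend and also left out that library. In DPLG1 mutant replicate 22, where the ribosomal protein genes were highest, the chorion genes summed to 1058 CPM, the lowest of that group, and the gut genes to 0.0947 CPM. In DPLG4 mutant replicate 15 the sums were 1840 and 8.79 CPM. The part that the chorion and gut genes and bam have in these differences was not tested.

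**Figure D5:**
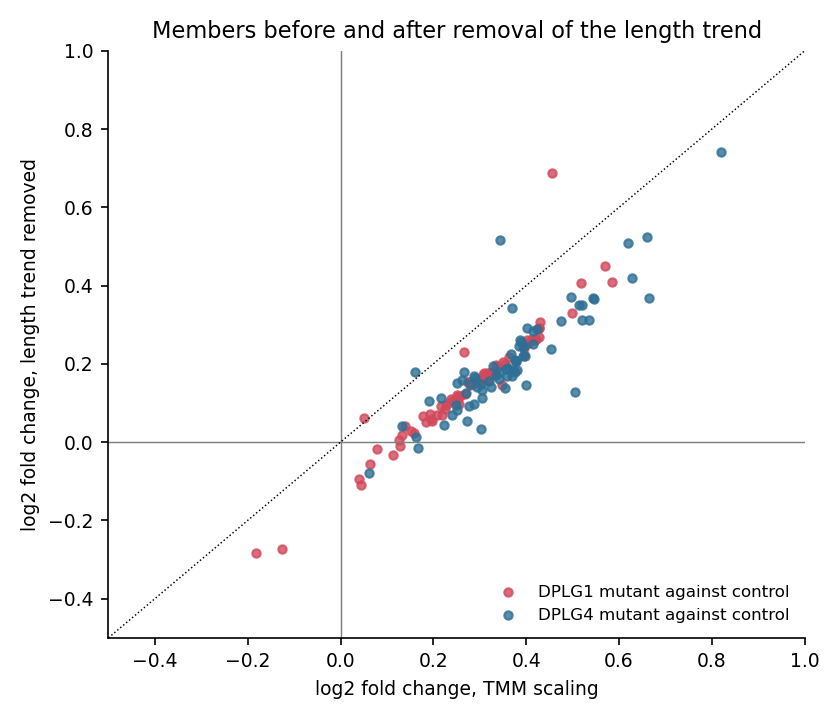
log2 fold change of the 73 ribosomal protein genes after (vertical axis) against before (horizontal axis) the length trend was removed, for each mutant against control. The dotted line marks equal values. Most points lie below it and above 0, and the 2 points well above it belong to RpL5, whose annotated exons of 3835 bases are the longest.

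The largest values after removal belonged to genes of both subunits. In DPLG4 mutants against controls RpLP0 stood at 0.74, RpL10Ab at 0.52, RpL5 at 0.52, RpS2 at 0.51 and RpS16 at 0.42. In DPLG1 mutants against controls RpL5 stood at 0.69, RpS10a at 0.45, and RpS16 and RpLP0 at 0.41 each. There, 8 genes were below 0, with RpL28 at -0.28 and RpL6 at -0.27 the lowest. RpL5, whose annotated exons of 3835 bases are the longest, rose on removal from 0.46 in DPLG1 mutants and 0.34 in DPLG4 mutants, whereas most genes fell. RpS10a had a mean of only 0.97 CPM in DPLG1 mutants, and its value before removal was 0.57 with an SE of 0.70. None of the values after removal passed edgeR's quasi-likelihood test. The smallest adjusted p among all 73 genes was 0.147, for RpL10Ab, in DPLG4 mutants against controls and 0.168, for RpL9, in DPLG1 mutants against controls (edgeR's quasi-likelihood test).

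The ribosomal protein genes varied together over the 9 libraries. Pearson r of log2 CPM had a median of 0.843 over 2628 pairs of genes, with quartiles of 0.635 and 0.935. The pairs share libraries, depth and length trend, and after the trend was removed the median r was 0.563. Pairs of other genes were not measured. Of the 73 genes, 42 had r over 0.9 with the median profile of the group, which is built from these same genes. The genes that followed the group least were RpL3 with r = -0.082, RpL6 with 0.260, RpL4 with 0.299, RpLP0 with 0.396 and RpS2 with 0.478. RpS2 and RpLP0 are thus among those that depart from the common profile, with DPLG4 mutant replicate 3 and not replicate 15 as their highest library. Between libraries of a group, the median coefficient of variation of the 73 genes was 12.2% in DPLG1 mutants, 20% in DPLG4 mutants and 10.1% in controls, against 11.1%, 16.9% and 14.9% over all tested genes.

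Of 8354 other tested genes, 171 (2.05%) had r over 0.9 with the median profile. Among the 6 most alike, Rtc1 (r = 0.982), CG42359 (r = 0.979) and CG6321 (r = 0.979) had a symbol, and 3 identifiers, with r of 0.987, 0.982 and 0.977, had none. The last 2 of these identifiers had 893 to 1604 CPM, within the range of ribosomal protein genes. They may be among the 5 members that could not be paired, which was not determined here. Rtc1 had 53.4, 44.3 and 44.9 CPM in DPLG1 mutants, 55.6, 47.8 and 45.2 CPM in DPLG4 mutants and 40.5, 41.2 and 38.6 CPM in controls, a level far under that of nearly all ribosomal protein genes.

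Other parts of the translation apparatus had medians nearer to 0. Of 48 listed translation factors and ribosome-associated proteins, 45 were tested, and none passed edgeR's quasi-likelihood test in any comparison. The medians were 0.10 in DPLG1 mutants and 0.062 in DPLG4 mutants against controls. With the length trend removed they were 0.054 and 0.029, against 0.15 and 0.18 for the ribosomal protein genes. Before removal, an unadjusted p under 0.05 in the higher direction was found for 8 of the 45 (17.8%) in DPLG1 mutants against controls. Of all tested genes, 7.13% had one. In DPLG4 mutants against controls it was found for 4 (8.89%), near the 7.32% of all tested genes. In the lower direction 1 of the 45 had one in each comparison, against 830 and 291 of all 8427 tested genes. DESeq2 called eIF4H1 lower in DPLG1 mutants and Rack1 higher in DPLG4 mutants against controls, with adjusted p = 4.61e-05 and 0.000428. It called eRF1, the release factor, higher in DPLG1 than in DPLG4 mutants, with adjusted p = 0.0317. That was 1 of the 45 in each comparison, near the share that DESeq2 called of all genes with an adjusted p. Those shares were 2.74%, 2.19% and 1.96% in the same order. Listed among the 45 are sta and Rack1, proteins of the small subunit whose symbols fall outside the rule. The first, sta, the fly counterpart of the laminin receptor protein of the small subunit, had log2 fold changes of 0.43 and 0.54, and Rack1, a scaffold on the small subunit, had 0.19 and 0.38. The adjusted p was 0.276 and 0.255 for sta, and 0.289 and 0.137 for Rack1 (edgeR's quasi-likelihood test). eIF4H1, an initiation factor, had -0.68 in DPLG1 mutants, with 189.1, 210.5 and 211.2 CPM, against 329.2, 305.0 and 347.2 CPM in controls (adjusted p = 0.103, edgeR's quasi-likelihood test). In DPLG4 mutants it had -0.26.

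For ribosome assembly factors, 38 of 43 listed genes were tested, with medians of -0.061 and -0.018. The medians were -0.095 and -0.038 with the length trend removed. None passed edgeR's quasi-likelihood test before removal. DESeq2 called wcd higher in DPLG1 mutants against controls and Fib lower in DPLG1 than in DPLG4 mutants, with adjusted p = 0.0387 and 0.0477. That was 1 of the 38 in each of these comparisons. DESeq2 called a similar share of all genes with an adjusted p, 2.74% and 1.96%. Fib, the methyltransferase of ribosomal RNA, stood at -0.28 in DPLG1 mutants and 0.23 in DPLG4 mutants against controls. Among 13 tested regulators of ribosomal protein genes and of growth, none passed the same test either, and the medians were 0.041 and -0.018. Myc, which drives ribosomal genes in growing fly cells, had 102.1, 111.8 and 116.4 CPM in DPLG1 mutants, against 166.4, 152.7 and 148.8 CPM in controls, a log2 fold change of -0.50 (SE 0.12, adjusted p = 0.24, edgeR's quasi-likelihood test; adjusted p = 0.023, DESeq2). Myc, larp, whose human counterpart binds messenger RNAs of ribosomal protein genes, and Mnt, the antagonist of Myc, are long transcripts of 9170, 9126 and 4556 bases and had values of -0.50, -0.78 and -0.96 in the DPLG1 mutant. They lie in the length class whose median over all genes was -0.33 in that comparison. The next smallest p of the 13 there was that of crc, of 3423 bases, which went the other way. It had 413.7, 328.9 and 322.5 CPM in DPLG1 mutants, against 294.4, 288.9 and 249.7 CPM in controls. The log2 fold change was 0.35 (SE 0.15, adjusted p = 0.286, edgeR's quasi-likelihood test). Of the 13 regulators, 7 were positive and 6 negative. DESeq2 called only Myc of the 13 there, and 2.74% of all genes with an adjusted p.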

How the data were processed

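Each library came as a deposited table of unnormalized read counts for 17559 genes, and its 5 summary lines stayed out of library sizes. Per the submitters' processing notes, FastQC, STAR 2.5, HTSeq and DESeq2 were used, with the builds BDGP6 and GRCh37 named and their roles not given. No source used here gives the annotation release or the strand setting. Symbols, positions and exon lengths (union of annotated exons) came from the Ensembl annotation of BDGP6.54. Of the identifiers, 17253 matched and 306 did not.

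Counts were fitted in R 4.3.3 with edgeR 4.0.16 (filterByExpr, TMM, robust quasi-likelihood fit, group as the only term, all 9 libraries), with Benjamini-Hochberg adjustment over 8427 genes. CPM values are TMM-scaled. The length trend of each library was a lowess curve (span 0.3) of log2 CPM deviation on log2 exon length, removed as offsets. The fit was tested on simulated data. Alternatives were RLE, upper quartile scaling and scaling without the ribosomal protein genes, no filter or a CPM of 1 in 3 libraries, DESeq2 1.42.0, a fit to the 6 libraries compared, the length trend, and leaving out each library. The genes and lists were chosen with earlier results of these data known. Genes were named by level (4 highest and 4 lowest per kb), by comparison (6 smallest p and 3 lowest log2 fold changes), by DESeq2 call, by role and as paralogues, and some genes that met this rule are not reported here. RpL18, RpL4, RpL9, RpS3A, eRF1 and wcd were named after their values were seen. Promoter motifs were not analysed here. Library totals over genes were 18078883 to 95751320, so counting error was small for genes above 100 CPM.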

Additional observations from a re-analysis of the deposited data

How the results depend on the processing

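No ribosomal protein gene was called in any of the 3 comparisons under any alternative of edgeR run, and the DESeq2 Wald test called 6 in DPLG4 mutants against controls and 0 in the others. The median log2 fold change stayed positive in both comparisons with controls, between 0.15 (length trend removed) and 0.42 (upper quartile scaling) for the DPLG1 mutant and between 0.18 and 0.47 for the DPLG4 mutant. Leaving out 1 library gave 0.18 to 0.37 and 0.20 to 0.47. Upper quartile scaling moved the median of all genes by 0.14 in the DPLG1 mutant, and relative to all genes the median of the ribosomal protein genes was 0.27 under both scalings. Scaling without these genes moved their summed CPM to 121900 in DPLG1 mutants and 99590 in controls, by construction. A trend fitted without these genes, added after seeing the data, gave 0.15 and 0.19.

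Leaving out 1 library moved 15 of 32 single log2 fold changes by over 1.5 times in DPLG1 mutants against controls, 22 of 32 in DPLG4 mutants against controls and 6 of 7 between the mutants. Some single values changed sign. In DPLG1 mutants against controls these were RpL6 at 0.015 with upper quartile scaling, and RpLP1 at -0.095, RpS13 at -0.032, RpLP0-like at -0.0091 and RpL41 at -0.017 with the length trend removed, or -0.090, -0.028, -0.0059 and -0.014 with the added trend. Without single libraries RpLP1 ranged from -0.071 to 0.23 and RpL41 from -0.052 to 0.38. In DPLG4 mutants against controls RpLP0-like was at -0.079 and -0.073 with the trends removed and ranged from -0.049 to 0.23 without single libraries, and RpS10a, at 0.66 with all libraries, ranged from -0.47 to 1.14. Apart from the length trend, by construction, the cause was not tested. The direction of the DPLG1 mutant against DPLG4 mutant median turned to 0.084 without DPLG4 mutant replicate 15. No paired analysis was made, because the labels give no pairing or batch and the replicate numbers were used only as names.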

Other observations

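By chromosome arm, the tested ribosomal protein genes had median log2 fold changes in DPLG1 mutants against controls of 0.31 on 2L (16 genes), 0.25 on 2R (17 genes), 0.31 on 3L (13 genes), 0.29 on 3R (19 genes) and 0.24 on X (7 genes), and the single gene on chromosome 4, RpS3A, stood at 0.43. All tested genes on X had a median of -0.10 and those on chromosome 4 one of 0.20, against 0.023 to 0.040 on the other arms. In DPLG4 mutants against controls the medians of the ribosomal protein genes were 0.37 on 2L, 0.36 on 2R, 0.37 on 3L and 3R and 0.28 on X, and RpS3A stood at 0.40.

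RpL10Ab ends within CG32095, a gene on the opposite strand that also carries the name DPLG3. Their annotated exons overlap by 5 bases, at 11824207 to 11824211 on 3L (build BDGP6.54). CG32095 had 62.9, 57.6 and 55.1 CPM in DPLG4 mutant replicates 15, 3 and 7, against 50.0, 53.0 and 49.5 CPM in the controls. In DPLG1 mutant replicates 22, 5 and 7 it had 56.4, 57.6 and 62.1 CPM.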
